A study of Mus musculus with 461 samples.

Results

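The 10 genes described here belong to the bone morphogenetic protein (BMP) pathway and were chosen by symbol from the deposited tables of 31673 genes: the ligand Bmp4, the type I receptor Bmpr1a, the inhibitors Grem1, Bambi, Smad6 and Smad7, and the response genes Id1, Id2, Id3 and Id4. All 10 were found, each under 1 identifier, and all 10 were among the 22378 genes tested. The deposited tables held 461 single mouse cells, each captured and amplified on a Fluidigm C1 chip and each 1 sample. The starting cells were mouse embryonic fibroblasts (MEFs) of the OG2 transgenic line, which carries a green fluorescent reporter driven by Pou5f1 sequence, on a mixed background of 129SVJ (1/2), C57B6 (3/8) and CBA (1/8). The titles of all cells carry the tag 7F, which the labels do not spell out, and a day: 0, 1, 3, 4, 5 or 7. Fibroblasts grew in medium with 10% serum and reprogramming cells in iCD1 medium, so that day and medium cannot be told apart between day 0 and the later days. The labels call every sample an embryonic fibroblast, whatever its day, and name neither animals nor the number of derivations.

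BMPs are secreted ligands that bind pairs of type I and type II serine/threonine kinase receptors. The receptors phosphorylate SMAD1, SMAD5 and SMAD9, which enter the nucleus with SMAD4 and bind GC-rich elements near their target genes. The Id genes are the classical immediate targets. Id proteins are helix-loop-helix proteins without a DNA-binding region, and they hold back basic helix-loop-helix (bHLH) transcription factors by pairing with them. The pathway is also known for its feedback: SMAD6 and SMAD7 block the receptor signal inside the cell, BAMBI is a receptor decoy in the membrane, and Gremlin 1 binds BMP ligands outside the cell. In mouse embryonic stem cells, BMP4 and the Id genes are known for their part in self-renewal, and in fibroblasts BMP signalling has been linked to the early steps of reprogramming.

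Each title also starts with b1, b2 or b3, a prefix that the labels do not explain. The cells of 1 prefix and 1 day were treated as 1 set, since cells of a set are not replicates. The 8 sets with 10 or more cells were b1 of day 0 (20 cells), b2 of day 0 (54), b2 of day 1 (58), b1 and b2 of day 3 (61 and 58), b3 of day 4 (59), b2 of day 5 (79) and b2 of day 7 (65). A further 5 cells of b1 at day 5 and 2 cells of b1 at day 7 entered no main test. Only days 0 and 3 had n = 2 sets. The other days were assumed to vary as these do, day 4 and prefix b3 cannot be told apart, and p-values measure only the spread between sets, which may be technical. Counts per cell ran from 0.319 to 6.999 M (mega-counts), and the day 4 cells had the lowest median, 0.983 M. The identity of the cells was checked on marker lists. All 15 fibroblast markers were above 0 in all 8 sets; their summed mean TPM (relative transcript abundance, scaled for gene length and depth) was 3000 and 2182 in the day 0 sets and 559 at day 7. For 11 pluripotency markers the sum was 0.51 and 0.25 at day 0 and 10409 at day 7. Sums for other cells ranged over the sets from 0.79 to 47.6 TPM for 8 endothelial markers, from 2.34 to 50.8 TPM for 7 blood markers, from 37.7 to 588 TPM for 8 epithelial markers and from 0.63 to 46.7 TPM for 6 muscle and bone markers. Of the 8 endothelial markers, 4 were above 0 in each day 0 set, where Cdh5, Cldn5, Emcn and Tek were at 0, and 7 or 8 were above 0 in every later set. Of the 7 blood markers, 1 to 5 were above 0 in a set. Lyz2 was at 0 in 7 of the 8 sets, while Cd68 was above 0 in all 8. In b2 of day 3, which had the highest blood sum (50.8 TPM), only Cd68 and Laptm5 were above 0. All 8 epithelial markers were above 0 in b2 of day 3 and in the sets of days 4, 5 and 7, and 4 to 6 were above 0 in the other 4 sets. The part of these cell types in the results below was not tested.

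The promoters of 7 of the 10 genes had an entry in the RefSeq promoter table of GRCm38.p6, whose build need not be that of the counts. Id2, Id3 and Grem1 are shown, because they are among the genes that fell in the comparisons below. Each sequence is the 250 bases before the annotated start, 5′ to 3′ on the strand of the gene, and capitals mark GGCGCC, a palindromic SMAD1/5 element, searched on both strands together with a longer BMP-responsive element, which is GGCGCC followed after 5 bases by GTCT and so contains the first motif.
Id3, plus strand, chr4:136143572-136143821: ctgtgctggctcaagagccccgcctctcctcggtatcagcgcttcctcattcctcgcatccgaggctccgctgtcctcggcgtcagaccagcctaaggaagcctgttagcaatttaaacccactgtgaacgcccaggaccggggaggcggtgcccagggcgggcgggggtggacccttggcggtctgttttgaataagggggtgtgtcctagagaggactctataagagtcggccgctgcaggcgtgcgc
Id2, minus strand, chr12:25096093-25096342: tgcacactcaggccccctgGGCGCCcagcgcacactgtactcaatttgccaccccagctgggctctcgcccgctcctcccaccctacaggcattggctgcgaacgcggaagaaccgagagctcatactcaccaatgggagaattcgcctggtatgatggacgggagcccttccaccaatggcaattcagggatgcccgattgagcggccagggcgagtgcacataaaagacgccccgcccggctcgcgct
Grem1, minus strand, chr2:113758649-113758898: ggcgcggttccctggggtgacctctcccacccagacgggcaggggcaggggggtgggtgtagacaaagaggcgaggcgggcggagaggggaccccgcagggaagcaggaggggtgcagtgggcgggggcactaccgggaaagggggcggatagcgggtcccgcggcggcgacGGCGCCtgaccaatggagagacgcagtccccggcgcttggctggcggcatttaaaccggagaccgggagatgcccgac
Id2 held 1 GGCGCC, whose first base was at -231 from the start, and Grem1 held 1 at -78. Id4 and Bmpr1a held 1 each, at -148 and -198, and the windows of Id3, Smad6 and Bmp4 held none of these letters. Of all 32851 promoter windows of this length, 3149 (9.59%) held GGCGCC, and 23 (0.07%) held the longer element, which none of the 7 held. The GC content of the 7 windows ran from 62.8% to 78.8%, against a median of 52.4% over all windows. A match of this kind is a description of the letters and no evidence of binding.

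Against day 0, every one of the 10 genes that passed the test was lower, and none was higher. The test was edgeR's quasi-likelihood F test on counts summed over each set, two-sided, with Benjamini-Hochberg adjustment over all 22378 genes and a threshold of 0.05. At day 1, 0 of 10 passed (1.18% of all genes, 0.934% higher and 0.25% lower). At day 3, 1 of 10 passed (3.14% of all genes, 2.1% higher and 1.04% lower), which was Id3. At day 4, 3 of 10 passed (3.03% of all genes, 2.07% higher and 0.965% lower): Id3, Smad7 and Grem1. At day 5, 1 of 10 passed (4.73% of all genes, 2.56% higher and 2.18% lower), which was Id2. At day 7, 3 of 10 passed (6.6% of all genes, 3.55% higher and 3.05% lower): Id3, Bmp4 and Grem1. These 5 comparisons share the day 0 sets, so their calls are not separate evidence.

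The 10 genes had median log2 fold changes of −0.74, −0.85, −1.65, −1.28 and −1.88 at days 1, 3, 4, 5 and 7 against day 0. Over all tested genes these medians were 0, 0.11, 0, 0 and 0. The number of the 10 with a value below 0 was 7, 8, 9, 9 and 10 in the same order, where 42.3% to 48.9% of all genes lay below 0. Between later days few values passed: 0 of 10 for day 3 against day 1 (0.402% of all genes, 0.246% higher and 0.156% lower), 0 of 10 for day 5 against day 3 (1.71% of all genes, 0.643% higher and 1.07% lower) and 1 of 10 for day 7 against day 5 (0.554% of all genes, 0.103% higher and 0.451% lower), which was Grem1. At unadjusted p under 0.05 in the same edgeR test, 1595 of the 22378 tested genes passed at day 1 and 877 between days 1 and 3. Without any true difference, a share of 0.05 of the tested genes would pass on average. No test set the 10 genes against other genes.

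**Figure D1:**
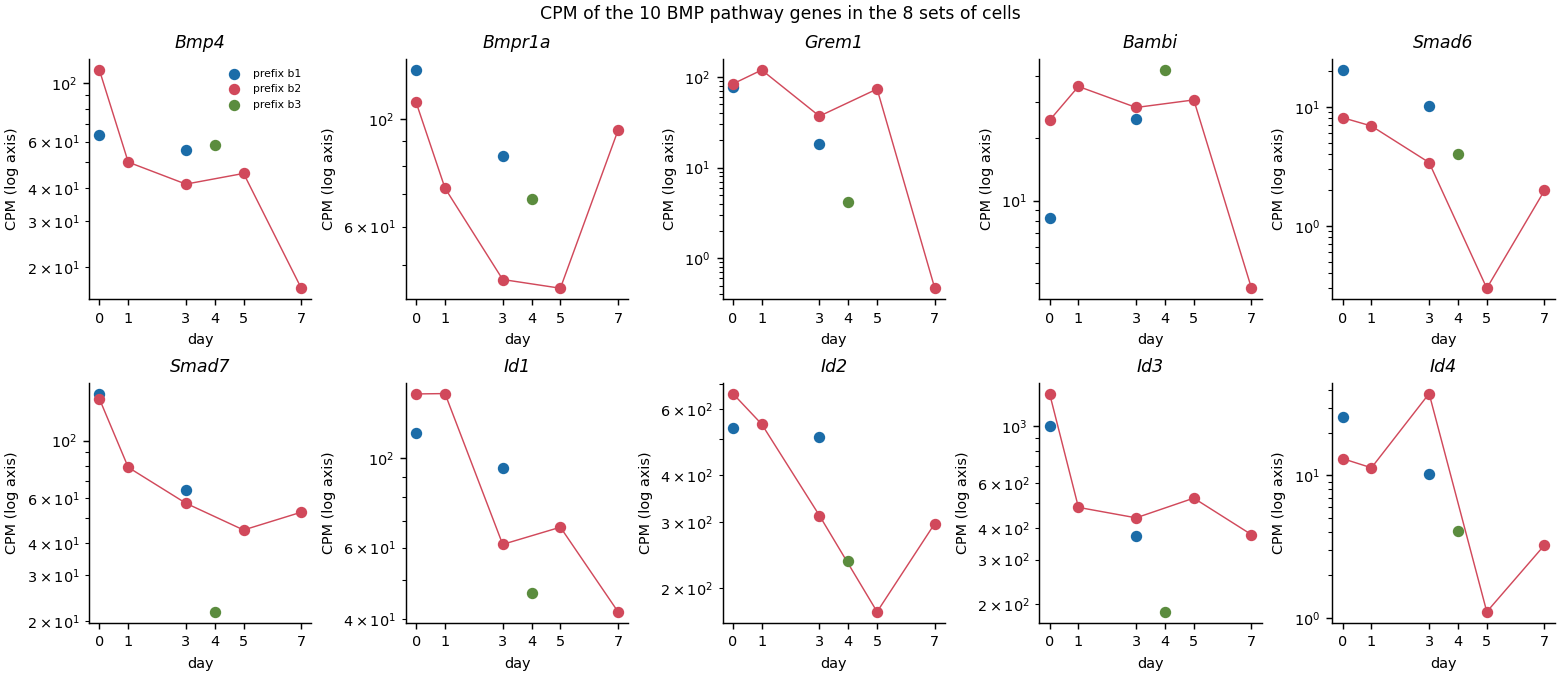
CPM (the count of a gene for each mega-count of the set, after TMM scaling; log axis, its range set for each gene) of the 10 genes by day in the 8 sets, 1 point per set, coloured by prefix, with a line joining the b2 sets. Id3 lies at 1002 and 1346 CPM in the day 0 sets and at 187 to 523 CPM in all later sets, and Grem1 at day 7 is at 0.468 CPM.

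Id3 (ENSMUSG00000007872) was the most abundant Id gene at day 0. It stood at 1002 CPM in b1 and 1346 CPM in b2, a mean of 1174 ± 243 CPM (SD, n = 2). In the later sets it was at 481 CPM (b2, day 1), 373 and 438 CPM (b1 and b2, day 3), 187 CPM (b3, day 4), 523 CPM (b2, day 5) and 376 CPM (b2, day 7). Of the 8 sets, the day 0 sets were the 2 highest and the day 4 set was the lowest. The share of all genes with both day 0 sets above every later set was not computed. The 5 b1 cells of day 5 stood at 754 CPM for Id3, with 92.7% of the counts in 1 cell. The 2 b1 cells of day 7 stood at 88.9 CPM.

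By the edgeR test Id3 fell by 1.53 on the log2 scale at day 3 (SE 0.37, adjusted p = 0.00275), fell by 2.65 at day 4 (SE 0.52, adjusted p = 3.66e-05) and fell by 1.64 at day 7 (SE 0.49, adjusted p = 0.0158). At day 1 its log2 fold change was −1.29 (adjusted p = 0.26) and at day 5 it was −1.17 (adjusted p = 0.173), neither past the threshold. Within prefix b1, day 3 stood at 0.372 of day 0, and within b2 at 0.325, so that the size of the day 3 difference was alike in both. Without either day 3 set the adjusted p at day 3 was 0.447 (without b1) and 0.326 (without b2), with log2 fold changes of −1.43 and −1.65. The Id3 call at day 4 held without each set of days 0 and 3 in turn but was lost with limma on TPM (adjusted p = 0.171 with either pseudocount) and with all 10 sums (adjusted p = 0.258), and the call at day 7 was lost without either day 3 set (adjusted p = 0.113 and 0.127).

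Id3 stayed detectable in most cells while its level per cell was lower. A TPM of 1 or more was found in 100% and 98.1% of the day 0 cells, in 84.7% to 93.4% of cells in the sets of days 1 to 5, and in 87.7% at day 7. The median TPM per cell was 897 (b1) and 1047 (b2) at day 0, 219 at day 1, 297 and 308 at day 3, 124 at day 4, 366 at day 5 and 193 at day 7. The highest single cell at day 0 reached 6450 TPM in b2, and the highest at day 7 reached 3320 TPM. None of the 8 sets drew more than 15.3% of its Id3 counts from 1 cell.

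Id2 (ENSMUSG00000020644) was lowest at day 5. It stood at 534 and 659 CPM in the day 0 sets, 546 CPM at day 1, 505 and 312 CPM at day 3, 236 CPM at day 4, 173 CPM at day 5 and 297 CPM at day 7. The day 0 and day 1 sets and b1 of day 3 lay above 500 CPM, and all other sets below 320 CPM. Id2 fell by 1.79 at day 5 on the log2 scale (SE 0.50, edgeR adjusted p = 0.0115). At days 4 and 7 its log2 fold changes were −1.34 (adjusted p = 0.14) and −1.0 (adjusted p = 0.258).

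The share of Id2-positive cells was between 90% and 100% in all sets up to day 4, then 65.8% at day 5 (52 of 79 cells, exact 95% interval 54.3 to 76.1%) and 81.5% at day 7. Its median TPM per cell was 323 and 358 at day 0, 458 at day 1, 56 at day 5 and 68.1 at day 7. The mean and the median thus gave different distances between days 5 and 7: the day 7 cells included 1 at 3827 TPM, against a highest of 1417 TPM at day 5. The Id2 call at day 5 was lost without either day 3 set, with adjusted p of 0.0876 (without b1) and 0.0989 (without b2) at an unchanged log2 fold change of −1.79. With the 5 b1 cells of day 5 added as a set, Id2 was at −0.84 (adjusted p = 0.592): that set stood at 493 CPM, with 98.3% of the counts in 1 cell.

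Id1 (ENSMUSG00000042745), like Id3 an early BMP target, passed the test on no day. It stood at 115.2 and 144 CPM at day 0, 144 CPM at day 1, 94.3 and 61.1 CPM at day 3, 46.4 CPM at day 4, 67.4 CPM at day 5 and 41.6 CPM at day 7. The 3 sets of days 0 and 1 were the highest and the day 7 set the lowest, with the day 4 set next to it. Its log2 fold change was 0.16 at day 1 and −1.64 at day 7 (SE 0.60, edgeR adjusted p = 0.0828); without b1 of day 0 the adjusted p at day 7 was 0.0297.

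The number of Id1-positive cells was lower at the end. Of the cells, 85% and 87% were positive at day 0, 87.9% at day 1, 83.6% and 67.2% at day 3, 78% at day 4, 60.8% at day 5 and 35.4% at day 7 (23 of 65 cells, exact 95% interval 23.9 to 48.2%). After each cell was thinned to 300000 counts, the share with at least 1 count was 35.4% at day 7 and 80% and 83.3% at day 0. The median TPM per cell was 63.8 and 112.5 at day 0 and 0 at day 7, while the highest day 7 cell reached 1128 TPM. Intervals on shares of cells cover counting error only and say nothing of the spread between sets.

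Id4 (ENSMUSG00000021379) was the scarcest Id gene, and the one whose 2 sets of day 3 lay farthest apart. It stood at 25.6 and 13.1 CPM at day 0, 11.3 CPM at day 1, 10.2 and 37.6 CPM at day 3, 4.05 CPM at day 4, 1.10 CPM at day 5 and 3.24 CPM at day 7. The 2 sets of day 3 lay on either side of the day 0 sets, and 49.4% of the counts of the higher one came from 1 cell. The sets of days 4, 5 and 7 were the lowest, with log2 fold changes of −2.26, −4.13 and −2.58 and SEs of 1.30, 1.45 and 1.32, none past the threshold (lowest edgeR adjusted p = 0.079, at day 5). Id4 at day 5 was called with DESeq2 (adjusted p = 0.00062) and without b2 of day 0 (adjusted p = 0.0196). Id4 was found in 33.3% to 62.1% of cells in the sets of days 0 to 3, 32.2% at day 4, 5.1% at day 5 (4 of 79 cells) and 10.8% at day 7.

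**Figure D2:**
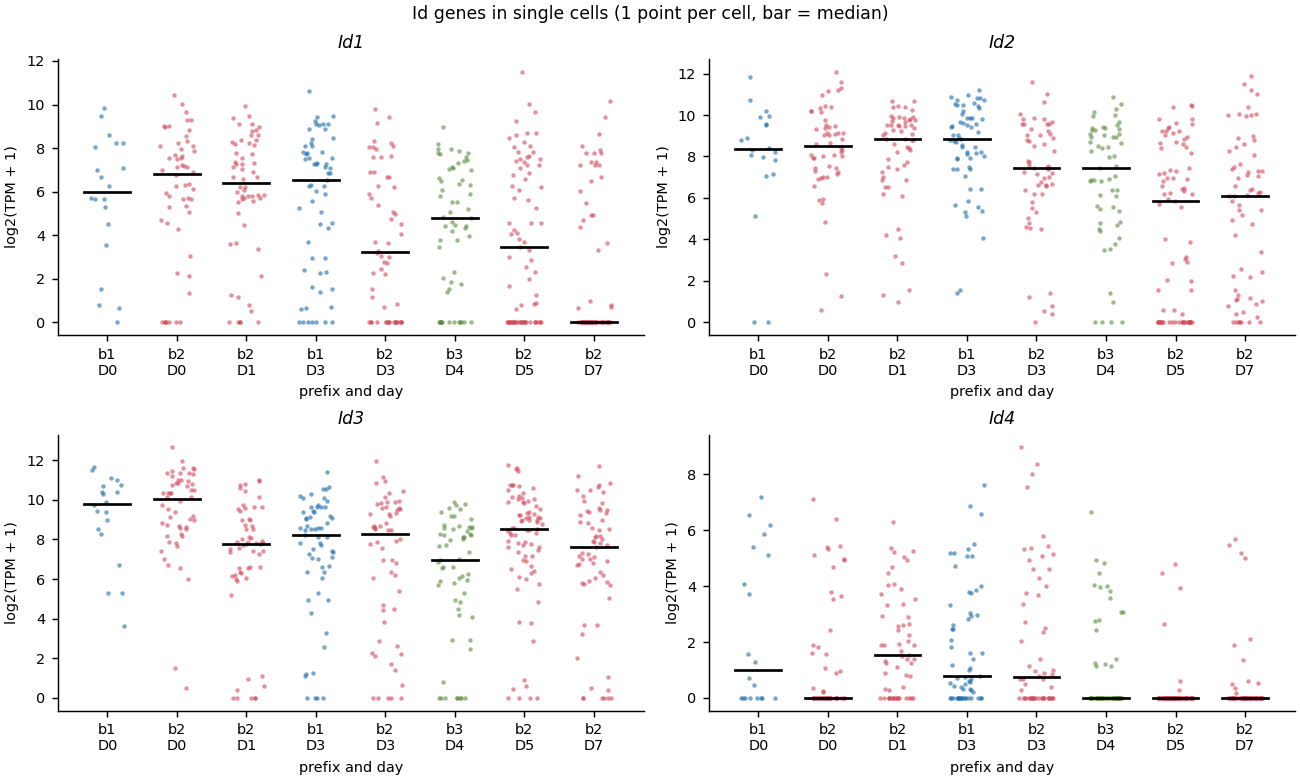
Levels of Id1, Id2, Id3 and Id4 in single cells as log2(TPM + 1), 1 point per cell for the 8 sets, coloured by prefix, with a black bar at the median of the set. The Id3 medians of the later sets lie under those of day 0 although most cells lie above 0, whereas at day 7 the Id1 median is at 0.

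Cells with all of Id1, Id2 and Id3 were a smaller share of the sets of days 5 and 7 than of all others. At a TPM of 1 or more, all 3 were found in 80% and 85.2% of cells at day 0, 75.9% at day 1, 80.3% and 56.9% at day 3, 67.8% at day 4, 43% at day 5 and 30.8% at day 7 (20 of 65 cells, exact 95% interval 19.9 to 43.4%). The lowest 2 shares were those of days 5 and 7, and the 2 sets of day 3 differed by more than the 2 sets of day 0. Cells with none of the 3 were absent up to day 4 and numbered 2 of 79 at day 5 and 2 of 65 at day 7. The summed TPM of the 4 Id genes had medians per cell of 1382 and 1646 at day 0, 952 at day 1, 1193 and 664 at day 3, 584 at day 4, 503 at day 5 and 304 at day 7. Id3 supplied 56.9% and 59.1% of the summed Id TPM at day 0 and 34.4% to 64% in later sets.

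Within each set, cells with more Id1 also had more Id3. Spearman's rank correlation between Id1 and Id3 over the cells of a set was 0.59 and 0.44 at day 0, 0.73 at day 1, 0.62 and 0.35 at day 3, 0.40 at day 4, 0.50 at day 5 and 0.47 at day 7. For Id2 and Id3 it ran from 0.00 (day 4) to 0.63, and for Id1 and Id2 from 0.10 to 0.62. The points of each correlation are cells of 1 set, which share a prefix and a day. The same coefficient between total counts and Id1 ran from −0.16 to 0.35 and between total counts and Id3 from 0.05 to 0.27. Between Id3 and its known inducer Bmp4 it was 0.61 over the 20 cells of b1 at day 0 and −0.10 to 0.18 in the other 7 sets.

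The Id genes and the pluripotency factor Pou5f1 were set side by side in the same cells. Between Id2 and Pou5f1, the rank correlation was −0.43 at day 5 and −0.42 at day 7, and −0.28 to 0.15 in the other sets. Between Id3 and Pou5f1 it was −0.35 at day 5 and −0.31 at day 7, and −0.14 to 0.37 in the others, with the value of 0.37 at day 4. Pou5f1 was at 62.8 CPM at day 5 and 86.1 CPM at day 7, and in 5.0% and 1.9% of the day 0 cells, which leaves the early correlations resting on few cells.

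Bmp4 (ENSMUSG00000021835), the ligand of the group, was lowest at day 7. It stood at 63.7 and 112.4 CPM at day 0, 50.2 CPM at day 1, 55.7 and 41.4 CPM at day 3, 58.3 CPM at day 4, 45.4 CPM at day 5 and 16.6 CPM at day 7. All sets of days 1 to 5 lay between 41 and 59 CPM, under b1 of day 0. By edgeR Bmp4 fell by 2.41 at day 7 on the log2 scale (SE 0.72, adjusted p = 0.0183), and its values of −0.59 to −0.96 at the other days did not pass.

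Within prefix b2, day 7 stood at 0.148 of day 0 in CPM. The call was lost without b2 of day 0 (adjusted p = 0.0597) and without either day 3 set (adjusted p = 0.0562 and 0.055). It was also lost when the 2 b1 cells of day 7 were added as a set: they stood at 95.8 CPM, with 109.1 and 64 TPM in the 2 cells, and the log2 fold change then was −0.65. Bmp4 was found in 75% and 64.8% of cells at day 0, 72.4% at day 1, 68.9% and 39.7% at day 3, 88.1% at day 4, 49.4% at day 5 and 24.6% at day 7. The day 4 cells had the highest share at the lowest depth. By the share with a count after thinning to 300000 counts they were again the highest, at 86.4%. In b2 of day 3, 1 cell held 56.3% of the Bmp4 counts. An antisense gene, Gm15217, overlaps exons of Bmp4 on the other strand, and whether counting used the strand is not given in the sources used here.

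Bmpr1a (ENSMUSG00000021796), a type I BMP receptor, passed no test. It stood at 127 and 108.4 CPM at day 0, 72 CPM at day 1, 84.1 and 46.6 CPM at day 3, 68.5 CPM at day 4, 44.7 CPM at day 5 and 95 CPM at day 7. By CPM the day 0 sets were the highest of the 8 and the day 7 set was next. The lowest was 2.83 times under the highest, the narrowest range of the 10 genes. Its log2 fold changes against day 0 ran from −1.39 at day 5 (SE 0.61, edgeR adjusted p = 0.234) to −0.31 at day 7 (SE 0.58). The share of cells with Bmpr1a ran from 63% in b2 of day 0 to 95% in b1 of day 0. The median TPM per cell was 19.6 (b1) and 4.8 (b2) at day 0 and 10.8 at day 1. It was 16.8 and 6.66 at day 3, 10.5 at day 4, 3.66 at day 5 and 10.9 at day 7. Opposite-strand genes also overlap exons of Bmpr1a (Gm17110) and of Id4 (A330033J07Rik and Gm49291).

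**Figure D3:**
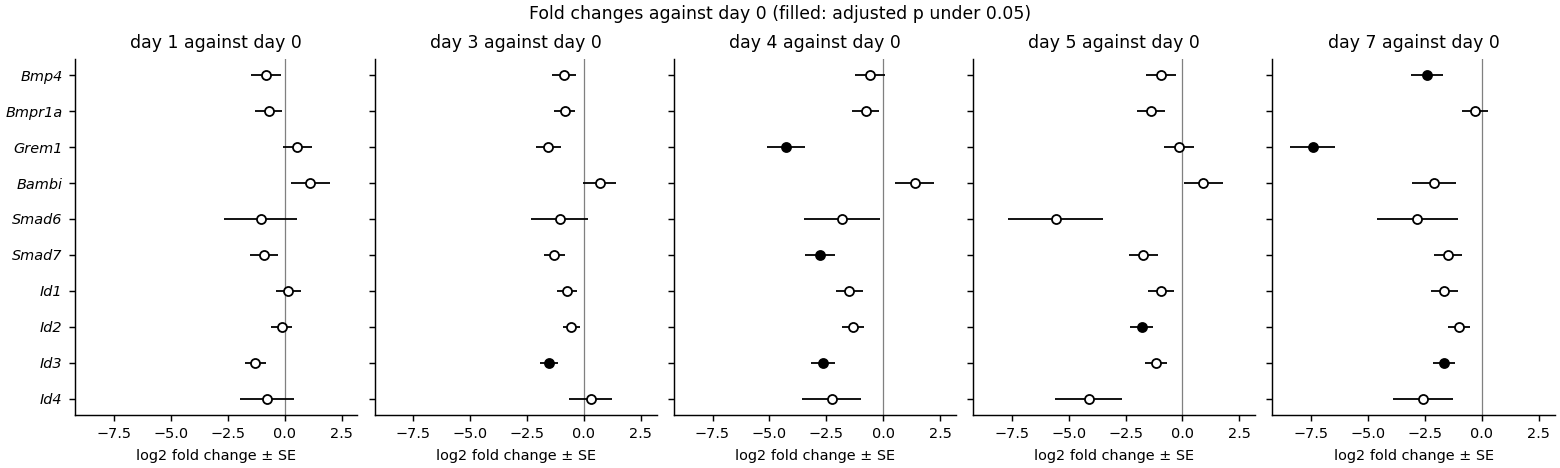
Log2 fold changes of the 10 genes against day 0 (horizontal axis, ± SE) at days 1, 3, 4, 5 and 7, from the edgeR fit; filled points have an adjusted p under 0.05. All 8 filled points lie below 0, with Grem1 at day 7 farthest.

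Grem1 (ENSMUSG00000074934), the secreted BMP antagonist, had the widest range of the 10 genes. It stood at 78.4 and 84 CPM at day 0, 120 CPM at day 1, 18.1 and 37 CPM at day 3, 4.21 CPM at day 4, 73.8 CPM at day 5 and 0.468 CPM at day 7. The sets of days 0, 1 and 5 lay above 73 CPM and all others at or under 37 CPM. By edgeR it fell by 4.27 at day 4 on the log2 scale (SE 0.82, adjusted p = 3.16e-05) and fell by 7.44 at day 7 (SE 0.98, adjusted p = 5.29e-12). The day 4 call of Grem1 was lost with limma on TPM (adjusted p = 0.221 and 0.205) and with all 10 sums (adjusted p = 0.359), and the day 7 call with limma on log2(TPM + 1) (adjusted p = 0.0507). At day 3 the value was −1.56 (adjusted p = 0.0981) and at day 5 it was −0.14 (adjusted p = 1).

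The day 5 level came from 1 cell. Of 79 cells, 1 had a TPM of 1 or more; it stood at 1675 TPM and held 100% of the 13776 counts of the set to the decimal given. Without the highest cell of each gene and set, Grem1 at day 5 was at −11.4 against day 0 on the log2 scale (adjusted p = 1.32e-06), and against day 3 the value went from 1.42 (adjusted p = 0.427) to −9.28 (adjusted p = 4.42e-05). The fall of 7.30 at day 7 against day 5 (SE 0.99, adjusted p = 3.14e-10) became −1.51 (adjusted p = 1) and lost its call. At day 7 as well, 1 of 65 cells was positive, at 12 TPM, with 99% of the 98 counts. The 5 b1 cells of day 5 likewise held all their Grem1 counts in 1 cell, at 56 TPM.

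Shares of cells with Grem1 were 40% and 27.8% at day 0, 70.7% at day 1 (41 of 58 cells, exact 95% interval 57.3 to 81.9%), 19.7% and 15.5% at day 3, 13.6% at day 4, 1.3% at day 5 and 1.5% at day 7. Day 1 was the only day with a positive share above 50%, and its share with a count after thinning was 74.1%. The median TPM per cell was 0.10 in both day 0 sets, 6.13 at day 1 and 0 in all later sets. The CPM of day 1 was nevertheless close to those of day 0, at 0.56 on the log2 scale (SE 0.64, adjusted p = 1), and at day 0 single cells held 63.3% (b1) and 43% (b2) of the counts against 18.4% at day 1. The fibroblast collagen gene Col1a1 went from 1193 ± 172 CPM at day 0 (SD, n = 2) to 89.6 ± 25.03 CPM at day 3 (SD, n = 2) and 41.3 CPM at day 7, and the rank correlation between Grem1 and Col1a1 over the cells of a set ran from −0.03 to 0.26. Thy1, also a fibroblast marker, went from 12.8 ± 13.6 CPM at day 0 (SD, n = 2) to 14.4 ± 18.6 CPM at day 3 (SD, n = 2). At day 7 Thy1 was at 0.0477 CPM, and its rank correlation with Grem1 ran from −0.02 to 0.30. The part of the share of fibroblast-like cells in the Grem1 values was not tested.

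Bambi (ENSMUSG00000024232), the membrane decoy, was above its day 0 mean at days 1, 3, 4 and 5 and below it at day 7. It stood at 8.21 and 24.4 CPM at day 0, 35.5 CPM at day 1, 24.8 and 28.1 CPM at day 3, 42.6 CPM at day 4, 30.6 CPM at day 5 and 3.78 CPM at day 7. The day 4 set was the highest and the day 7 set the lowest, 11.3 times apart. None of its values passed the edgeR test: they were 1.12 at day 1, 0.70 at day 3, 1.39 at day 4, 0.91 at day 5 and −2.11 at day 7 (SE 0.98, adjusted p = 0.231). In b2 of day 0, 1 cell held 53.2% of the counts. Bambi was found in 25% and 31.5% of cells at day 0, 60.3% at day 1, 55.7% and 50% at day 3, 78% at day 4 (exact 95% interval 65.3 to 87.7%), 35.4% at day 5 and 18.5% at day 7. A pseudogene of Bambi is annotated, and how the authors' counting divided reads between them was not tested.

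Smad7 (ENSMUSG00000025880), an inhibitory SMAD and itself a target of the pathway, was lower in every later set than in both day 0 sets. It stood at 152 and 145 CPM at day 0, 78.8 CPM at day 1, 64.2 and 57.2 CPM at day 3, 21.7 CPM at day 4, 45 CPM at day 5 and 52.8 CPM at day 7. Its day 0 mean was 149 ± 4.88 CPM (SD, n = 2) and its day 3 mean 60.7 ± 4.99 CPM (SD, n = 2). By edgeR it fell by 2.78 at day 4 on the log2 scale (SE 0.67, adjusted p = 0.00247). This Smad7 call was lost with limma on TPM (adjusted p = 0.213 and 0.198) and with all 10 sums (adjusted p = 0.643). At days 3, 5 and 7 the values were −1.29 (adjusted p = 0.144), −1.72 (adjusted p = 0.103) and −1.50 (adjusted p = 0.157), not past the threshold. Day 3 stood at 0.422 of day 0 within b1 and 0.393 within b2. The share of all genes lower in every later set than in both day 0 sets was not computed. Smad7 was found in 90% and 92.6% of cells at day 0 and 54.4% to 82.8% later, lowest at day 5.

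Smad6 (ENSMUSG00000036867), the other inhibitory SMAD, was a low gene throughout. It stood at 20.4 and 8.10 CPM at day 0, 6.90 CPM at day 1, 10.2 and 3.41 CPM at day 3, 4.03 CPM at day 4, 0.300 CPM at day 5 and 1.99 CPM at day 7. The 2 sets of a day differed by more than 2-fold, and the sets of days 5 and 7 were lowest. At day 5 its log2 value was −5.56 with an SE of 2.09 (edgeR adjusted p = 0.118), from 56 counts in that set. Smad6 at day 5 was called with DESeq2 (adjusted p = 2.51e-05) and without b2 of day 0 (adjusted p = 0.0419). It was found in 5.1% of cells at day 5 and 9.2% at day 7, against 40% and 31.5% at day 0.

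**Figure D4:**
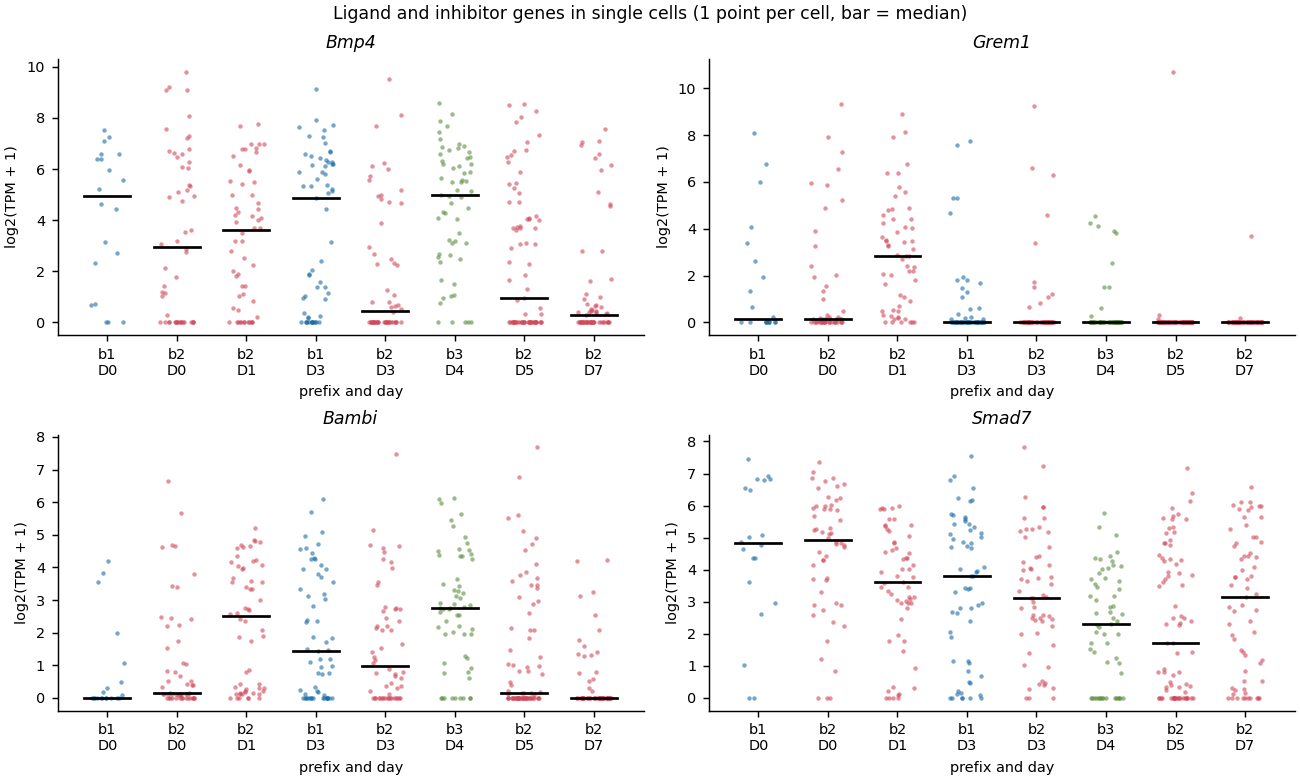
Levels of Bmp4, Grem1, Bambi and Smad7 in single cells as log2(TPM + 1), 1 point per cell for the 8 sets, coloured by prefix, with a black bar at the median. In the day 5 set Grem1 is near 0 in all cells but 1, which stands at 1675 TPM, and at day 1 most cells lie above 0.

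**Figure D5:**
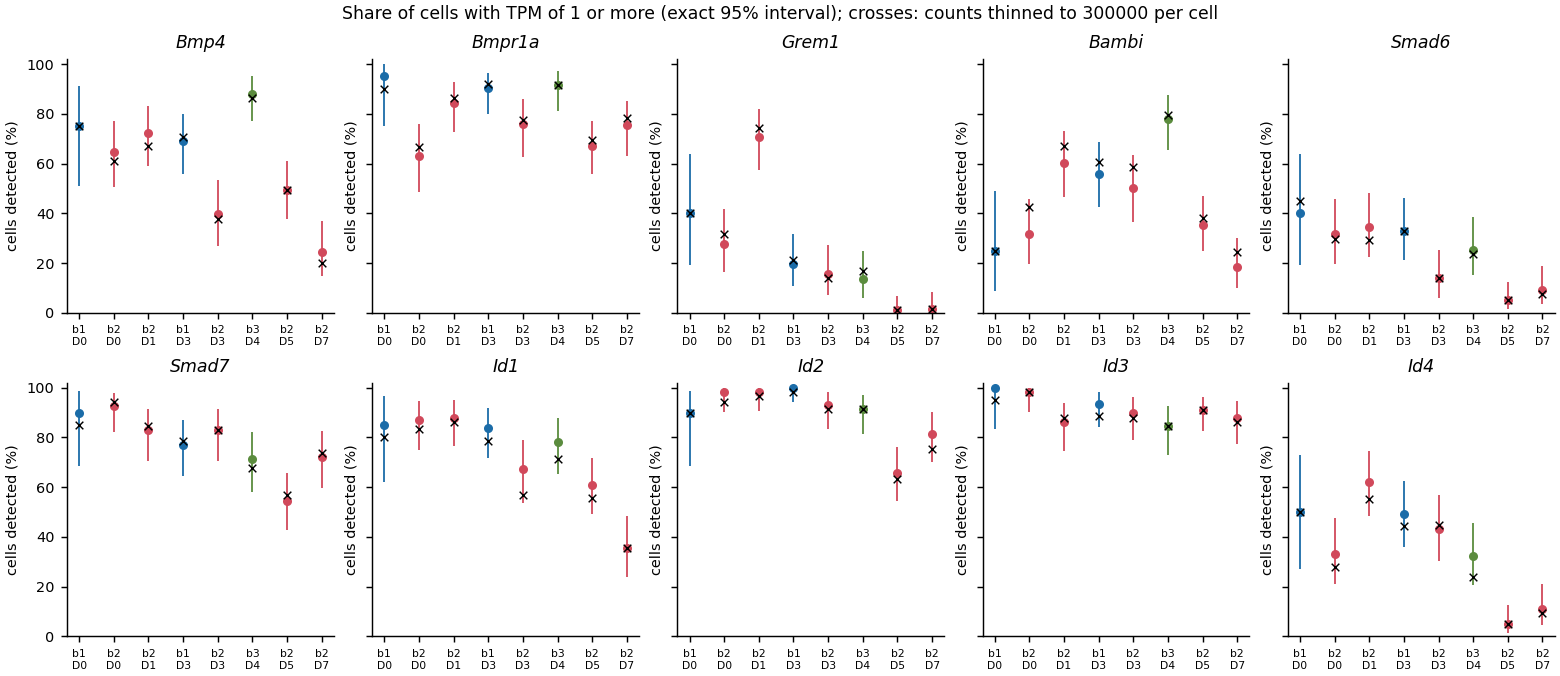
Share of cells (%) with a TPM of 1 or more for each of the 10 genes in the 8 sets, with exact 95% intervals as bars and black crosses for the share with a count after thinning each cell to 300000 counts. Id3 stays above 84% in all sets, whereas Id1 reaches 35.4% and Bmp4 24.6% at day 7.

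Levels were compared between genes on the TPM scale, which is scaled for length. Averaged over the cells of a day 0 set, Id3 had a mean level of 1114 TPM (b1) and 1306 TPM (b2), Id2 644 and 688 TPM, Id1 177 and 205 TPM, and Id4 23.7 and 9.56 TPM. Bmp4 had 51.7 and 80.2 TPM and its receptor Bmpr1a 31.1 and 21.1 TPM, while Smad7 had 50.8 and 41.1 TPM, Grem1 24 and 25.2 TPM, Smad6 8.78 and 2.80 TPM and Bambi 2.30 and 5.31 TPM. The order of levels Id3, Id2, Id1 held in 5 of the 8 sets. At day 1 the level of Id2 was 530 TPM against 411 TPM for Id3, and in b1 of day 3 it was 673 against 459 TPM. At day 4 Id2 was also above Id3, at 350 against 233 TPM. At day 7 the 3 levels were 456 TPM for Id3, 348 TPM for Id2 and 70.6 TPM for Id1.

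Over the 8 sets, the gene of the 10 whose pattern lay nearest to Id3 was Smad7. Pearson's r of log2(CPM + 1) was 0.931 between Id3 and Smad7, 0.723 between Id3 and Id1, 0.494 between Id3 and Bmp4 and −0.242 between Id3 and Bambi; between Id1 and Id2 it was 0.812. Among 6811 other genes with a mean of at least 20 CPM, the 3 most like Id3 were Carhsp1 (r = 0.966), Ddah1 (0.962) and Bcar1 (0.955). The 3 most like Id1 were Rdh13 (r = 0.991), Otud6b (0.980) and Tmem126a (0.975), and those most like Bmp4 were Spry1 (r = 0.959), Zcrb1 (0.957) and Pgrmc1 (0.947). With 8 points that share prefixes and days, and the highest of 6811 values picked, these are descriptions of rank.

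The other genes of the pathway were read from 6 lists with 68 genes, of which 67 were tested, in the main edgeR fit only. Against day 0 they had 0 higher and 1 lower call at day 1, 1 and 5 at day 3, 1 and 2 at day 4, 0 and 6 at day 5, and 0 and 9 at day 7. Of all tested genes, 0.934%, 2.1%, 2.07%, 2.56% and 3.55% were called higher on these days and 0.25%, 1.04%, 0.965%, 2.18% and 3.05% lower. The median log2 fold changes of the 67 genes in the same order were −0.55, −0.32, −0.33, −0.94 and −1.01, and bounds for genes without counts moved only the first of these, to −0.54. Between later days the calls were 0 and 0 for day 3 against day 1, 2 and 3 for day 5 against day 3, and 1 and 2 for day 7 against day 5, where 0.246%, 0.643% and 0.103% of all tested genes were called higher and 0.156%, 1.07% and 0.451% lower.

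The secreted inhibitors and modulators, all 17 of them tested, held more of the lower calls than any other of the 6 lists. Among those lower against day 0 were Fstl1 on every later day, Fst at days 3 and 7, Crim1 at days 4, 5 and 7, Bmper and Sostdc1 at day 3, Nbl1 at day 5, and Tll1 at day 7, and no gene of this list was called higher against day 0. Fstl1, Fst, Crim1 and Nbl1 lie outside the naming rule and are named after their values were seen. Fstl1, a secreted follistatin-like glycoprotein, had log2 fold changes of −1.82 at day 1 (edgeR adjusted p = 0.00929), −2.50 at day 3, −2.49 at day 4, −2.88 at day 5 and −3.36 at day 7 (adjusted p = 3.1e-09). Crim1, a membrane protein that binds BMPs, was at −5.00 at day 7 (SE 1.02, adjusted p = 6.07e-05). Fst, which sequesters activins and BMPs, was at −3.50 at day 3 (adjusted p = 0.00235) and −5.88 at day 7 (adjusted p = 0.000286).

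Several of the inhibitor calls rest on few cells. For Fstl1, Fst, Crim1 and Nbl1 the share of counts from 1 cell was not computed. Bmper, a secreted BMP modulator, went from 15.0 and 12.8 CPM at day 0 to 0.071 and 0.153 CPM at day 3, with 86.2% of the b1 counts of day 0 in 1 cell. Tll1, a protease of the BMP1 family, went from 4.71 and 13.1 CPM at day 0 to no count at day 7, and 75.1% and 48.4% of its day 0 counts came from 1 cell per set. The 276 day 0 counts of Sostdc1, an inhibitor of BMP and Wnt signalling, all came from 1 cell of b2. The 2 most abundant of this list by CPM without a call, Twsg1 and Fstl3, stood at 56.7 and 56.5 CPM and at 14.4 and 14.2 CPM at day 0, and at 18.5 and 3.04 CPM at day 7.

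Among 13 tested ligands other than Bmp4, calls against day 0 were all lower: Bmp5 at day 3, Gdf6 at days 5 and 7 and Bmp1 at day 7. Bmp1, a procollagen protease that shares the BMP name but not the ligand role, stood at 33.3 and 65.9 CPM at day 0, 98.9 and 136 CPM at day 3 and 11.2 CPM at day 7, where its log2 fold change was −2.15 (SE 0.69, edgeR adjusted p = 0.0332). Gdf6 had no count at day 5 or day 7, at least 739-fold and 829-fold lower when 3 counts are taken for the day, from day 0 levels of 10.4 and 12.4 CPM of which 99.8% in b1 came from 1 cell. Bmp5 stood at 7.60 and 0.291 CPM at day 0, with 97.4% and 100% of the counts in 1 cell of each set. Bmp2 and Bmp7, alternative ligands of the same receptors, had no call: Bmp2 was at 3.45 and 3.30 CPM at day 0 and at 18.4 CPM in its highest set, day 4, and Bmp7 at 16.8 and 25.1 CPM at day 0 and 5.99 CPM at day 7.

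Of 12 other receptors and co-receptors, Bmpr2 and Acvrl1 were called. Bmpr2, the type II partner of Bmpr1a, stood at 283 and 248 CPM at day 0, 126 CPM at day 1, 146 and 189 CPM at day 3, 106.6 CPM at day 4, 41.3 CPM at day 5 and 62.8 CPM at day 7. Both day 0 sets were above all later ones, an order whose share over all genes was not computed. Bmpr2 fell by 2.69 at day 5 (SE 0.59, edgeR adjusted p = 0.000294) and fell by 2.08 at day 7 (SE 0.57, adjusted p = 0.00663) on the log2 scale. Acvrl1, an endothelial type I receptor, had 1.81 and 6.58 CPM at day 0 and no count at day 7, with 50.5% and 56.1% of its day 0 counts in 1 cell per set. Tgfbr3 and Neo1, co-receptors with no call, were at 69.2 and 63.2 CPM and at 57.4 and 32.7 CPM at day 0 and at 119.02 and 41 CPM at day 7.

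Of 14 other response genes, Dlx3, a homeobox gene, was the only one called against day 0. It stood at 0.018 and 4.07 CPM at day 0, where 96.9% of the b2 counts came from 1 cell, and at 21.5 CPM at day 1, 31.4 and 19.2 CPM at day 3, 30.6 CPM at day 4, 1.44 CPM at day 5 and 0 at day 7. It rose by 3.62 at day 3 (SE 1.04, edgeR adjusted p = 0.02) and by 3.89 at day 4 (SE 1.13, adjusted p = 0.0243) on the log2 scale, and at day 7, without a count, it was called lower. Among response genes without a call, Klf10 was at 65 and 122 CPM at day 0 and 123 CPM at day 7, and Hes1, better known as a Notch target, was at 45.7 and 61.8 CPM at day 0 and 11.2 CPM at day 7.

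No gene passed in any of the 8 comparisons among the 8 SMADs and their regulators or the 3 bHLH partners of Id proteins. Smad1, a signal-carrying SMAD, had log2 fold changes of −1.28 to −1.92 against day 0 (SEs of 0.75 to 1.00), Smad5 of −0.48 to 0.78 and the shared Smad4 of −0.56 to 0.30. The co-repressors Skil and Ski stood at 436 and 387 CPM and at 57 and 56.2 CPM at day 0, and at 202 and 40.7 CPM at day 7. The bHLH genes Tcf4 and Tcf12 stood at 336 and 250 CPM and at 295 and 144 CPM at day 0, and at 168 and 218 CPM at day 7. The median log2 fold change of the 3 bHLH genes against day 0 lay between −0.49 and 0.10 on the 5 days.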

How the data were processed

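RNA of 461 single mouse cells was sequenced. The submitters' processing notes name bcl2fastq and RSEM 1.2.22. An aligner, genome build or annotation is not given in the sources used here. The deposited expected counts are the authors' RSEM estimates per gene and cell (9.108% of values are not whole), and the deposited TPM values are scaled by the authors within each cell for depth and gene length. No cell was removed, no doublet caller was run, and cells carry no molecular identifiers, so exact intervals and limits cover counting error only. All cells of a prefix and day were then added up and the sum of their expected counts rounded, 58.39 to 208.88 M (mega-counts) per sum in the 8 sums used.

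The test was edgeR 4.0.16 (quasi-likelihood F, two-sided, TMM factors from 0.8332 to 1.146, filterByExpr by day, 22378 genes) on the 8 sums with day as the only term and no block. It left 2 residual degrees of freedom, and the prior degrees of freedom were infinite, so a p rests on the spread shared over genes. Standard errors were obtained by dividing the size of the log2 fold change by the root of F. CPM are TMM-scaled. The fit was tested on simulated data with 200 of 22378 genes changed for day 3 against day 0: 2% of the 2-fold changes, 21.6% of those of 4-fold, 47.6% at 8-fold and 62.4% at 16-fold were recovered, with 2.4 false calls per draw. Detection is a TPM of 1 or more, and after thinning it is at least 1 count. "At least" folds take 3 counts over the day without counts.

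Alternatives were DESeq2 1.42.0, limma 3.58.1 on log2(TPM + 1) and log2(TPM + 0.1), no filter on low counts, all 10 sums, a prefix block, leaving out each set of days 0 and 3, leaving out the highest cell of each gene and set, and leaving out the 10% of cells with the fewest genes. Values of single genes under these alternatives were kept for the 10 genes only. How far the calls of the other pathway lists depend on the setting was not tested. The genes and lists were chosen with earlier results of these data known. Named are the 10 genes; per other list, up to 4 called genes with the largest change and 2 uncalled genes with the highest CPM; and the 3 genes most like Id1, Id3 and Bmp4, leaving out predicted genes, pseudogenes and ribosomal proteins. Promoter letters come from RefSeq, GRCm38.p6. The values of 1 called gene of the inhibitor list are not reported here.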

Additional observations from a re-analysis of the deposited data

Results flagged for a closer look

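Id4 stood out because the 2 prefixes differed in the direction of day 3 against day 0. Its CPM at day 3 was 0.4 of day 0 in prefix b1 (10.2 against 25.6 CPM) and 2.862 times day 0 in prefix b2 (37.6 against 13.1 CPM). With 1 set per prefix and day, this difference was not tested. In b2 of day 3 a single cell held 49.4% of the Id4 counts, and its part in the difference was not tested. The share of cells with Id4 was 50% at day 0 and 49.2% at day 3 in b1, and 33.3% and 43.1% in b2.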

How the results depend on the processing

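The calls on the 10 genes depended on the setting. With DESeq2, 3 genes passed at day 3, 4 at day 5, 5 at day 7, 2 for day 5 against day 3 and 2 for day 7 against day 5. With limma on log2(TPM + 1), 0 passed at days 3, 4, 5 and 7 and for day 7 against day 5; with a pseudocount of 0.1 these were 0, 0, 0, 1 and 0. With all 10 sums, 0 passed at days 3, 4 and 5. With the prefix number as a replicate block (7 sets, no day 4), 0 passed at day 3, 0 at day 5 and 1 at day 7; only 2 pairs exist, the prefix difference at day 0 correlated with that at day 3 at r = 0.057 over genes, and the numbers were not taken to pair the sets. Without the cells with the fewest genes, 2 passed at day 3, where 658 of all tested genes were called. Without the highest cell of each gene and set, 3 passed at day 5, 1 for day 5 against day 3 and 0 for day 7 against day 5, and Grem1 at day 5 against day 3 reversed to −9.28. Leaving out each set of days 0 and 3 gave 0 to 1 calls at days 1 and 3, 3 to 4 at day 4, 0 to 3 at day 5, 1 to 5 at day 7, and 0 to 1 each for day 3 against day 1 and day 5 against day 3. The 1 call at day 1 (Id3, adjusted p = 0.0306) and the 5 at day 7 came without b1 of day 0. The cause of these changes was not tested.

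There were 630 log2 fold changes of the 10 genes under settings other than leaving out a set. Of these, 587 kept their side of the threshold, 28 lost a call, 14 gained one and 1 reversed direction and was called in the alternative. Of 320 under leaving out a set, the numbers were 301, 9, 10 and 0. A change of direction between values without a call was not counted as a reversal, and such changes occurred. For example, Id4 at day 3 against day 0 was 0.31 in the main fit and ran from −0.92 to 0.95 when a set was left out. Over all genes, edgeR called 265, 703, 679, 1059 and 1477 at days 1, 3, 4, 5 and 7 against day 0, 90 for day 3 against day 1, 383 for day 5 against day 3 and 124 for day 7 against day 5. In this order the counts over all genes were 716, 1559, 1233, 2149, 2881, 256, 1006 and 473 with DESeq2, and 1, 37, 33, 158, 352, 0, 12 and 18 with all 10 sums. With the block they were 3, 158, 274, 419, 7, 19 and 16, without day 4. Limma called 0 in all but day 7 (582 with a pseudocount of 1, 441 with 0.1) and day 7 against day 5 (0 and 206). Without the highest cells they were 177, 571, 633, 1047, 1482, 18, 299 and 62. Leaving out a set gave 145 to 440, 261 to 793, 421 to 846, 690 to 1271, 918 to 1679, 30 to 166, 161 to 690 and 69 to 221. The Id3 call at day 3 had an adjusted p of 0.0681 with the block, and those of Id2 at day 5, Bmp4 at day 7 and Id3 at day 7 had 0.155, 0.137 and 0.0738. The self-test for day 3 against day 0 recovered 21.6% of 4-fold changes, so a gene without a call there is not shown to be unchanged. No day other than 0 and 3 had a second set of 10 or more cells. Of the 80 shares of cells, 80 stayed within their exact interval after thinning to 300000 counts per cell, and 28 left it when detection needed a TPM of 5. A thinned cell was positive with at least 1 count, not with a TPM of 1 or more, so depth and threshold changed together.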
